A study of Mus musculus with 4 samples.

Results

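The interferon stimulated genes described here are a list of 37 mouse genes that interferons are known to induce and that were chosen by name. Gene symbols were matched to the 32285 features of the count matrices, and 35 of the 37 had a row, 27 counted as type I genes and 8 as interferon gamma type genes. Mx1 and Mx2 were not analysed here. The type I genes were Ifit1, Ifit2, Ifit3, Ifit3b, Isg15, Isg20, Rsad2, Oas1a, Oasl1, Oasl2, Usp18, Irf7, Stat2, Bst2, Rtp4, Zbp1, Ifi27l2a, Ifi203, Ifi213, Trim30a, Slfn1, Slfn5, Slfn8, Xaf1, Ifih1, Cmpk2 and Epsti1. The gamma type genes were Gbp2, Gbp4, Gbp5, Gbp7, Igtp, Irgm1, Iigp1 and Ifi47. The division is one of convention, since many of these genes respond to both kinds of interferon.

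The genes were read in 4 single-cell RNA libraries (10x Genomics 3′ chemistry) of CD8 T cells, sorted as CD44+ and CD90.1+ from lymph nodes that drained a tumour, in C57BL/6 mice at day 14 after the tumour was implanted. In the M9 group, labelled as carrying the high affinity GP33 epitope, 2 libraries were made, and the labels give 10 mice. In the C6M9 group, labelled low affinity GP33, 2 libraries were made, and the labels give 35 mice. Whether these numbers are per library or per group, and whether both libraries of a group came from 1 pool of mice, is not clear from the labels. Both groups share the strain, the day, the organ and the sort. GP33 is a peptide epitope of a lymphocytic choriomeningitis virus glycoprotein, and CD90.1 is an allele of Thy1 commonly used to mark transferred T cells in C57BL/6 hosts, which carry CD90.2. The sources used here do not give the age of the mice, the tumour line or the origin of the CD90.1+ cells. Cells were pooled from several mice and cannot be traced to one of them, so the library is the replicate, and with 2 libraries per group a p-value measures only the spread between these libraries.

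Type I interferons act through the Ifnar1 and Ifnar2 receptor and a complex that holds Stat2 and Irf9, which binds interferon stimulated response elements (ISRE) near genes such as Ifit1 and Isg15. Interferon gamma acts through Ifngr1 and Ifngr2 and on gamma activated sites (GAS), and strongly induces guanylate binding proteins (Gbp genes) and immunity-related GTPases (Irgm1, Igtp, Iigp1, Ifi47). In T cells, type I interferon is known both to act as a signal that supports expansion and to restrain proliferation, according to when it is received relative to antigen.

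Promoters of 6 of the genes are printed because they show the 2 kinds of element in genes that behave differently below. Ifit1, Ifit3 and Isg15 are type I genes with ISRE matches, Gbp7 and Igtp are gamma type genes with both elements, and Epsti1, whose difference between the groups was above 0 in every cell set compared, has neither in this window. Each sequence is the 180 bases before the RefSeq transcription start (GRCm38.p6), read 5′ to 3′ on the strand of the gene. Capitals mark matches to the ISRE core, GAAA and GAAA with any 2 bases between them (searched on both strands), or to the GAS core, TTC and GAA with any 3 bases between them (which reads the same on both strands).
Ifit1, chr19:34640709-34640888, plus strand: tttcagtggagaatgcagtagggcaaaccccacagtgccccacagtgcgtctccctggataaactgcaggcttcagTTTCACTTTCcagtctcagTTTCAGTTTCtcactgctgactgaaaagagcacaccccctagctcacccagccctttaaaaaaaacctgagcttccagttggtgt
Ifit3, chr19:34583349-34583528, plus strand: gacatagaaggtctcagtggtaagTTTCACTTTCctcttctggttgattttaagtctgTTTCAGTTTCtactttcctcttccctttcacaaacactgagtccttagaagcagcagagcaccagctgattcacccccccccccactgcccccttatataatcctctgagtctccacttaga
Isg15, chr4:156200819-156200998, minus strand: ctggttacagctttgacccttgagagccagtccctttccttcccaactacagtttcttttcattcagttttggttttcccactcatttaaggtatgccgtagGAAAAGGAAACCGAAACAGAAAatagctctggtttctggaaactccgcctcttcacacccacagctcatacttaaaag
Gbp7, chr3:142530156-142530335, plus strand: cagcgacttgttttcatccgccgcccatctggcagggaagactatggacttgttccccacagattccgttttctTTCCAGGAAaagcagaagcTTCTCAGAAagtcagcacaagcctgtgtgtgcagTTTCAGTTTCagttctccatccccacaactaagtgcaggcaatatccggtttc
Igtp, chr11:58199376-58199555, plus strand: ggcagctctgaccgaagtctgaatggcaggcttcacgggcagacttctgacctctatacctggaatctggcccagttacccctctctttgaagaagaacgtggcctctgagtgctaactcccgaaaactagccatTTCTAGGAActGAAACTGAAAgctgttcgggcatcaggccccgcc
Epsti1, chr14:77904059-77904238, plus strand: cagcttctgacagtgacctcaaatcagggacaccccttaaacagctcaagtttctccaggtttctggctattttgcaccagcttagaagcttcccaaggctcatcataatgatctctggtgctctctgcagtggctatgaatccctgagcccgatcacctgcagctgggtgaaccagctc
Ifit1 has ISRE matches starting at -104 and -85 from its start, and the last 18 bases of its window lie in an annotated exon. Ifit3 has them at -156 and -122. In Isg15, 3 overlapping matches start at -78, -72 and -66. Gbp7 has an ISRE match at -53 and GAS matches at -106 and -87, and in Igtp a GAS match at -45 is followed by an ISRE match at -34. Promoter sequences from 250 bases before to 50 bases after the start were matched for 29 of the 37 genes. An ISRE match was present in 19 of those 29 (65.5%), 14 of 23 type I and 5 of 6 gamma type genes, against 3.99% of all 27025 genes with a promoter of this length. A GAS match was present in 7 of the 29 (24.1%), 4 of 23 type I and 3 of 6 gamma type genes, against 9.55% of all genes. These are matches of letters and not measured binding.

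Several members lie in family clusters, by the GENCODE annotation of GRCm38, in which those named here are protein-coding. The listed Ifit genes share a stretch of chromosome 19, with Ifit2 at chr19:34550694-34576419, Ifit3 at chr19:34583531-34588731, Ifit3b at chr19:34607970-34613401 and Ifit1 at chr19:34640871-34650009. Oasl2 (chr5:114896936-114912234) and Oasl1 (chr5:114923240-114937915) are neighbours, as are Rsad2 (chr12:26442746-26456452) and Cmpk2 (chr12:26469204-26479837). Gbp5 (chr3:142493978-142522344), Gbp7 (chr3:142530342-142550149) and Gbp2 (chr3:142620602-142638008) share a stretch of chromosome 3. Epsti1 lies at chr14:77904239-78002657, Isg15 at chr4:156199424-156200818 and Igtp at chr11:58199556-58207591.

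After filters on low quality, 10324 of 11113 cell barcodes remained, and 277 likely doublets and a cluster of 124 B cell-like cells were left out. The 9923 T cells numbered 4101 and 1199 in the M9 libraries and 2889 and 1734 in the C6M9 libraries (replicates 1 and 2, the order used throughout). Library totals ranged from 33680632 to 79174624 UMIs, and the median T cell had 13205, 20024, 13993 and 21476 UMIs (unique molecular identifiers, each standing for 1 captured transcript). No pair of libraries shared more than 4 barcodes. The T cells carried the sorted identity, with Cd8a at 520 to 582 and Cd3e at 599 to 818 UMIs per 1000000, Cd44 at 63.9 to 99.5, and Cd4 at 1.05 to 3.17. Summed markers of other cell types were 320 to 383 UMIs per 1000000 for 15 B cell markers and 306 to 325 for 14 myeloid markers, 3 of which were at 0. The myeloid markers include Bst2, itself a member of the list. Gamma delta T cell markers, 4 of them measured, summed to 390 to 417, and 8 markers of NK or innate lymphoid cells to 50.6 to 54.5. Markers of CD4 or regulatory T cells summed to 78.5 and 51.3 in M9 and 37.4 and 50.1 in C6M9, highest in M9 replicate 1, and melanoma or stroma markers, 2 of 8 at 0, to 60.5 and 62.4 against 46.6 and 55.3. Their part in the results was not tested. Marker sums of T cell states did differ between groups. Memory-like markers summed to 2115 and 2418 UMIs per 1000000 in M9 against 3361 and 3348 in C6M9, and TCR-activated-like markers to 663 and 428 against 204 and 244.

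Mean levels over all T cells ran from 2.93 CPM (Oasl1) to 1438 CPM (Ifi27l2a). They are given as CPM, UMIs per 1000000 UMIs of a library scaled by TMM (trimmed mean of M values), a scale on which levels of different genes can be set beside each other because a 3′ kit counts 1 end per transcript. Ifi27l2a, a small hydrophobic protein of the Ifi27 family, stood far above the rest with a mean of 1438 over the 4 libraries. It made up 50.9%, 48.5%, 39.0% and 40.1% of all type I UMIs. Next came Ifi203, a member of the PYHIN family of nucleic acid binding proteins, at 370, and Epsti1 at 331. Schlafen gene Slfn1 followed at 115, then the TRIM family gene Trim30a at 113, the virus-tethering membrane protein Bst2 at 109 and the GTPase Ifi47 at 108. The libraries of these 4 overlapped in range, so their order is not resolved.

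Antiviral effectors were lower. Isg15, a ubiquitin-like modifier, had a mean of 69.2, Ifit3 and Ifit1, which bind viral RNA, 48.2 and 39.3, and the exonuclease Isg20 26.6. The Z-nucleic acid sensor Zbp1 (76.5), Ifi213 of the PYHIN family (75.1), Slfn8 (55.0), Xaf1 (51.8), Slfn5 (49.6) and the membrane protein chaperone Rtp4 (38.5) fell in the same range. Among the factors that transmit the signal, the transcription factor Irf7 was at 42.9 and Stat2 at 23.1. The gamma type genes below Ifi47 ran from Gbp7 (67.1), Gbp4 (56.3), Igtp (43.2), Irgm1 (34.3) and Gbp2 (28.5) to Gbp5 (14.3) and Iigp1 (10.8). Under 20 CPM were 11 genes, among them the Isg15 protease Usp18 (17.2), the RNA sensor Ifih1 (15.6), Ifit2 (14.6), Rsad2, which encodes viperin (14.5), its neighbour on chromosome 12, Cmpk2 (13.9), and Ifit3b (10.5). The oligoadenylate synthetase family closed the list with Oas1a (7.44), Oasl2 (4.86) and Oasl1 (2.93).

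Some of these levels are uncertain because transcript ends are shared. Of the 50-base stretches at the 3′ end of Oas1a, 56.1% also occur in Oas1g. The same holds for 14.9% of those of Ifit3 (in Ifit3b), 12.6% of Ifi213 (Ifi208), 6.43% of Gbp4 (Gbp6 and Gm43302) and 3.104% of Slfn8 (Slfn9), and reads there could be split between the copies or dropped.

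**Figure D1:**
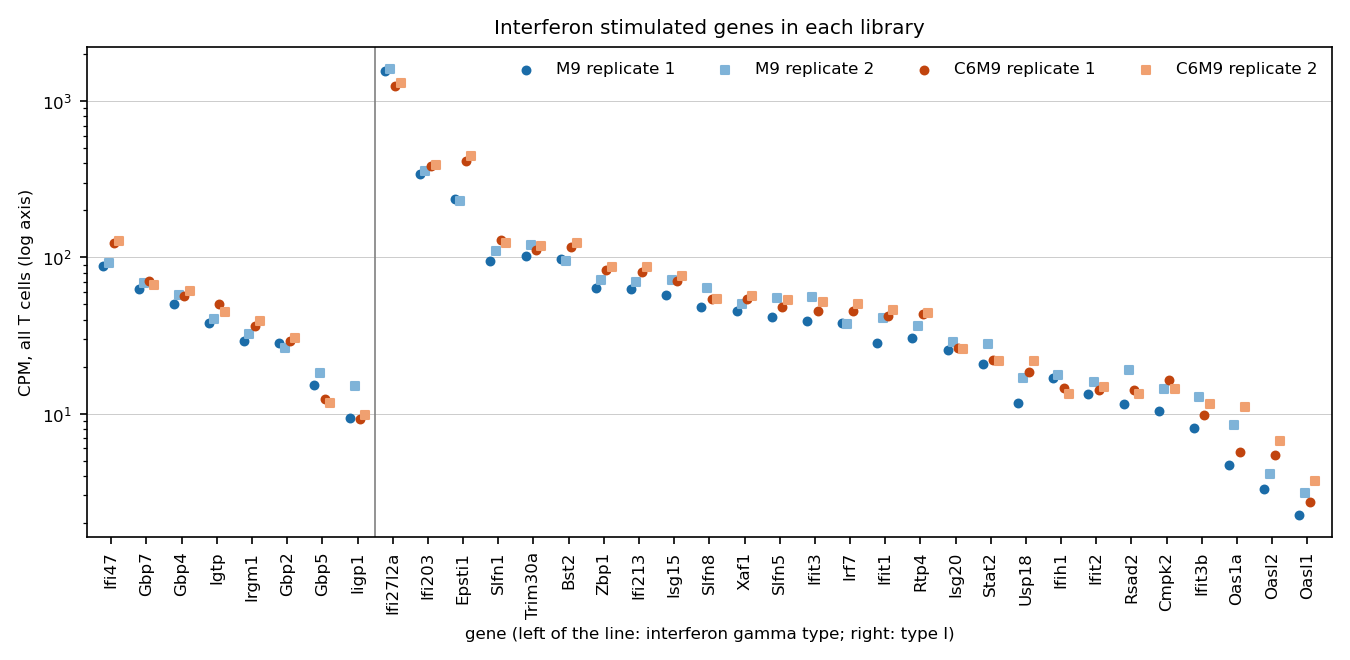
CPM (log axis) of each of the 35 genes over all T cells, 1 point per library, with gamma type genes left of the line and type I genes right of it, each ordered by mean. Ifi27l2a lies near 1438 CPM, far above Oasl1 at 2.93, and for most genes the 4 libraries lie close together compared with the distance between genes.

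Whether the list as a whole differed with the affinity of the epitope was asked over all T cells. Of 35 genes, 3 were higher in C6M9 and none was lower, at an adjusted p under 0.05 (edgeR quasi-likelihood test, Benjamini-Hochberg adjustment over 13654 genes). Over all genes, 5.63% were called, 1.59% higher and 4.04% lower. DESeq2 called 12 members, 10 higher and 2 lower, where it called 8.18% of all genes, 3.93% higher. Without a filter on low counts edgeR called 15 members, where 9.58% of all genes were called, and without cells in S or G2M phase 9 members, where 8.1% were. At an unadjusted p under 0.05 edgeR had 10 type I genes higher and 2 lower, and 3 gamma type genes higher and 1 lower, where 23.9% of all genes were under it. All differences below are C6M9 minus M9 on the log2 scale.

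The M9 libraries had 237 and 229 CPM of Epsti1, an interferon-induced gene first named for contact of epithelial and stromal cells, and the C6M9 libraries had 412 and 447. Every C6M9 library was above every M9 library, and the difference was 0.88 (SE 0.09, adjusted p = 0.00271). Ifi47, an immunity-related GTPase, was at 88.7 and 92.1 in M9 and 123 and 128 in C6M9, again without overlap (0.47, SE 0.08, adjusted p = 0.0166). Oasl2, of the oligoadenylate synthetase-like genes, was at 3.29 and 4.08 against 5.40 and 6.68 (0.73, SE 0.17, adjusted p = 0.047). Without C6M9 replicate 1, the calls of Ifi47 and Oasl2 were lost (adjusted p = 0.104 and 0.0655), and without C6M9 replicate 2 likewise (0.106 and 0.219). That of Oasl2 was also lost without M9 replicate 1 (0.0623), while Epsti1 was called in each of these fits.

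The classical type I genes were not called over all T cells. Ifit1 was at 28.5 and 40.9 in M9 and 42.3 and 45.8 in C6M9 (0.35, adjusted p = 0.221), Ifit3 at 39.3 and 55.6 against 45.6 and 52.2 (0.05), and Isg15 at 57.7 and 71.8 against 70.9 and 76.5 (0.19). In all 3, M9 replicate 2 lay well above M9 replicate 1. Ifi27l2a, the most abundant gene, had a value opposite to most others, 1568 and 1605 in M9 and 1261 and 1319 in C6M9 (-0.30, adjusted p = 0.134). Gbp5, at 15.3 and 18.1 against 12.3 and 11.7, was the lowest difference (-0.47, adjusted p = 0.0505). Of the 27 type I genes, 20 had a difference above 0 and 7 below, with a median of 0.22, and of the 8 gamma type genes 6 were above and 2 below, with a median of 0.12. The median of all genes tested was -0.02. In 13 type I and 4 gamma type genes both C6M9 libraries were above both M9 libraries, and in 2 and 1 they were below. Of all genes, 55.7% had libraries that did not overlap, 26.1% with C6M9 above and 29.6% with C6M9 below.

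When cells were clustered on all variable genes, 1 cluster of 737 T cells was led by the interferon stimulated genes themselves and is called interferon-like. It held 5.90% and 9.42% of T cells in M9 and 8.24% and 8.30% in C6M9, so M9 replicate 1 was the lowest library and M9 replicate 2 the highest. Because the listed genes define the cluster, their levels inside it against outside are a description. Rsad2 was 29.98-fold higher inside, Ifit3b 23.5-fold, Ifit3 22.98-fold, Ifit1 20.1-fold and Isg15 13.9-fold. Of all members, Epsti1 was raised least, 2.02-fold, followed by Ifi27l2a at 2.68-fold. The median was 5.97-fold over type I genes and 3.14-fold over gamma type genes, among which Iigp1 reached 8.07-fold and Gbp5 2.75-fold.

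The same fit was made outside the interferon-like cluster, in the other 3859, 1086, 2651 and 1590 T cells, a set chosen through the tested genes themselves. There, 13 of 35 genes were called higher in C6M9 and 1, Gbp5, was called lower. Of all 13632 genes, 5.76% were called, 1.64% higher and 4.12% lower. Of the 13, 11 were type I genes. Ifit1 was at 12.7 and 14.3 CPM in M9 and 23.3 and 27.3 in C6M9, groups that did not overlap (0.91, SE 0.11, adjusted p = 0.00609 by edgeR). Usp18, which removes Isg15 from proteins and dampens the type I receptor, was at 6.39 and 7.67 against 12.4 and 15.1 (0.98, SE 0.14, adjusted p = 0.00969). Ifit3 was at 14.99 and 19.5 against 24.2 and 29.9 (0.66, adjusted p = 0.0471).

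Epsti1 was the member with the highest level among those called outside, at 225 and 208 against 393 and 431 (0.93, adjusted p = 0.00297). The other type I genes called were Oasl2 (0.94), Rtp4 (0.53), Irf7 (0.47), Zbp1 (0.44), Slfn1 (0.43), Ifi213 (0.42) and Bst2 (0.38). Isg15 stayed just short of the threshold with 33.4 and 37.2 against 43.6 and 49.99 (0.41, adjusted p = 0.0604). Both higher gamma type genes were GTPases of the Irg family, Ifi47 at 81.4 and 79.9 against 112 and 119 (0.52, adjusted p = 0.0123) and Irgm1 at 25.6 and 27.3 against 33.4 and 35.7 (0.39, adjusted p = 0.0456). Gbp5 was lower, 14.3 and 15.7 against 11.3 and 11.0 (-0.43, adjusted p = 0.0479). The median difference was 0.42 for type I and 0.16 for gamma type genes, against -0.01 for all genes. Both C6M9 libraries were above both M9 libraries in 21 of 27 type I and 6 of 8 gamma type genes, where 55.4% of all genes did not overlap and 26% were so ordered. These counts rest on both C6M9 libraries: without C6M9 replicate 2 only Ifit1, Usp18 and Epsti1 were called, and without C6M9 replicate 1 these and Ifit3 and Oasl2. Without M9 replicate 1 Irgm1 was no longer called, and without M9 replicate 2 Irf7, Bst2 and Gbp5 were not. Calls over all genes also became fewer without either C6M9 library, and more without either M9 library. The median type I difference ranged from 0.35 to 0.48 over these fits. Cells were placed outside by the same genes in both groups, so the comparison is between cells of low to moderate levels. The cells taken out were 5.90% and 9.42% of T cells in M9 and 8.24% and 8.30% in C6M9. That step changes the spread between libraries of the very genes tested. The p-values and counts of calls outside therefore hold only given that choice of cells, and are no stronger result than those over all T cells.

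The same fit was made inside the interferon-like cluster, whose cells were also chosen through the tested genes. The p-values and counts inside likewise hold only given that choice of cells. There, 2 members were called. Epsti1 was again higher, at 515 and 508 CPM in M9 and 775 and 739 in C6M9 (0.57, adjusted p = 0.00364, edgeR), and Ifih1, the RNA sensor MDA5, was lower, at 95.7 and 95.7 against 71.8 and 55.6 (-0.58, adjusted p = 0.0222). These 2 of 35 compare with 2.14% of 9334 genes, 0.675% higher and 1.47% lower. At an unadjusted p under 0.05, 2 type I genes were higher and 9 lower, and 1 gamma type gene was higher and 2 lower, where 13.9% of all genes were under it. Ifih1 was not called without C6M9 replicate 2 (adjusted p = 0.383), nor Epsti1 without C6M9 replicate 1 (0.0704). Ifit1 was at 383 and 401 against 395 and 382 (-0.01, SE 0.10), Isg15 at 604 and 541 against 578 and 560, and Gbp7 at 237 and 241 against 252 and 229, all overlapping. Ifit3 had the values 586 and 546 against 444 and 458 (-0.33, adjusted p = 0.122). Both C6M9 libraries lay below both M9 libraries in 14 of 27 type I genes and above in 3, where 44.1% of all genes did not overlap, 21.6% with C6M9 above and 22.5% with C6M9 below.

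**Figure D2:**
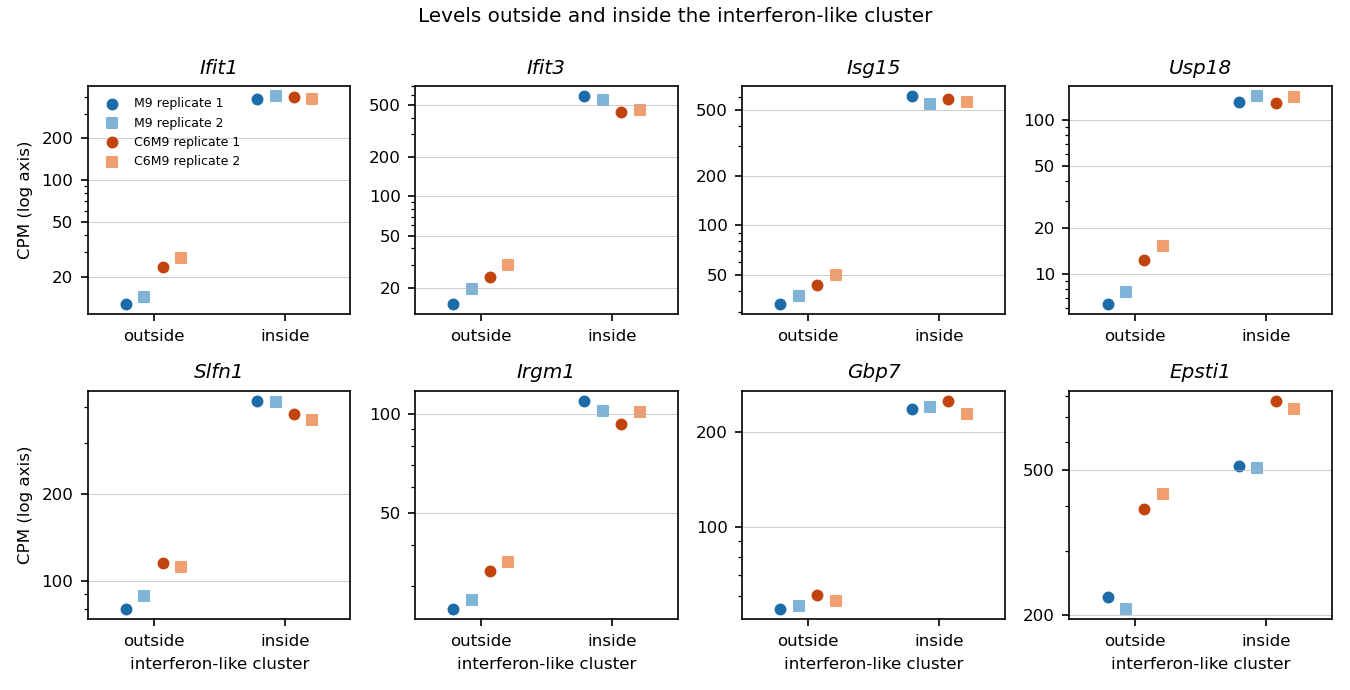
CPM (log axis, a separate scale for each gene) of 8 members in T cells outside and inside the interferon-like cluster, 1 point per library. Outside, the C6M9 libraries of Ifit1 (23.3 and 27.3) lie above those of M9 (12.7 and 14.3), while inside all 4 lie between 382 and 401, and Epsti1 is higher in C6M9 in both sets.

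Outside and inside, the difference of Ifit3 was 0.66 and -0.33, that of Ifit1 0.91 and -0.01, that of Usp18 0.98 and -0.01, and that of Epsti1 0.93 and 0.57. Since these genes divided the cells into the 2 sets, the values are set side by side as a description.

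To compare cells of the same state, T cells were clustered again without the listed genes and other interferon stimulated genes of a fixed list. This gave 9 clusters, numbered 0 to 8, of which 7 had at least 50 cells in every library. Cluster 0 (2315 cells, led by Izumo1r, Cd22 and Sox4) and cluster 1 (1197 cells, Tmem108 and Lef1) were left unnamed. Cluster 2 (1716 cells) was left unnamed too. It was led by S100a4 and by Ccl5 and Il7r, both in the list of memory-like markers, when the listed genes were left out of the ranking, but by Ifit3, Ifit1 and Isg15 when all genes were ranked. Cluster 4 (515 cells, Xcl1, Srm and Tnfrsf9) was TCR-activated-like, cluster 5 (1072 cells, Klre1 and Klrc2) effector-like, and clusters 6 (1223 cells, histone genes and Rrm2) and 7 (698 cells, Ccnb2 and Cenpe) cycling-like. Cluster 3 (848 cells, Tnfrsf4 and Egr3) was TCR-activated-like too, and cluster 8 (339 cells, Gzma and Gzmb) effector-like. Clusters 3 and 8 held 21 and 13 cells in their smallest library and were not tested. The groups differed strongly in their makeup: cluster 0 held 41.3% and 32.2% of T cells in M9 and 4.47% and 6.23% in C6M9, and cluster 2 held 6.63% and 15.3% against 30.4% and 22.1%.

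Levels of nearly the whole list peaked in cluster 2. Of the 7 tested clusters it had the highest mean for 26 of 27 type I and 7 of 8 gamma type genes. The exceptions were Epsti1 and Gbp5, highest in the effector-like cluster 5 at 568 and 21.6 CPM (levels by cluster are without TMM scaling). Rnf213 and Samhd1, interferon stimulated genes that were left in the clustering, were among the 10 leading genes of cluster 2, so its high levels and the makeup of the cluster are not independent. In cluster 2, Ifit1 averaged 129, Isg15 199 and Ifit3 174, against 13.9, 49.4 and 18.8 in cluster 4, the tested TCR-activated-like cluster. The untested TCR-activated-like cluster 3 had 26.4 for Ifit1 and 30.9 for Ifit3 in the M9 libraries. The untested cluster 8 had 12.0 and 11.5, in libraries with at least 50 cells. Of the tested clusters, the lowest mean was in cluster 4 for 19 type I genes and in the cycling-like cluster 6 for 7 gamma type genes. Not all genes followed that order. Ifi47 was second highest in cluster 4, at 144 against 157 in cluster 2.

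Drawn to an equal depth of 2000 UMIs per cell, cells of cluster 2 had a mean of 13.0 type I UMIs (10.5 to 15.5 over libraries), against 8.18 in cluster 5, 5.48 in cluster 0, 4.69 in cluster 4 and 4.35 in cluster 6. Of the untested clusters, cluster 3 had 7.85 over the 2 M9 libraries and cluster 8 had 2.96 over 3 libraries. The gamma type sum was 1.23 (1.06 to 1.39) in cluster 2 and 0.534 in cluster 6. The cycling-like cluster 7 had 8.07 type I UMIs but 3.41 once Ifi27l2a was left out, since that gene was high there (2036 CPM).

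**Figure D3:**
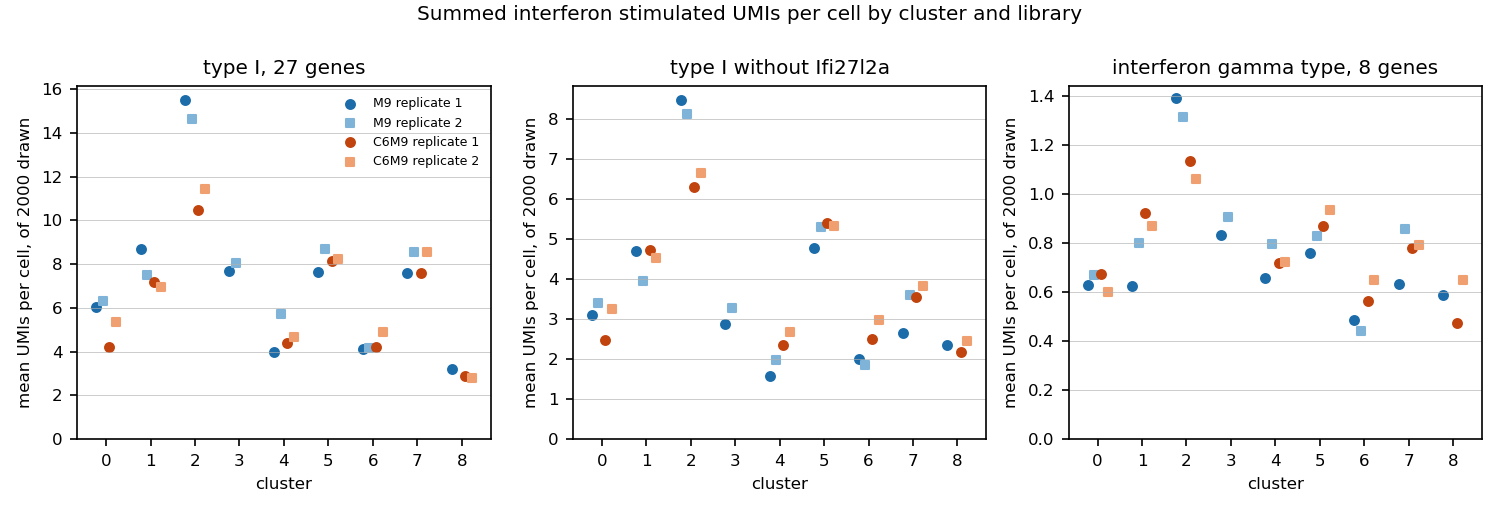
Mean number of type I UMIs, type I UMIs without Ifi27l2a, and gamma type UMIs per T cell (y axes from 0, of 2000 UMIs drawn per cell) in clusters 0 to 8, 1 point per library with at least 50 cells. The M9 libraries lie above the C6M9 libraries in cluster 2 in all panels, while without Ifi27l2a the C6M9 libraries lie above in clusters 4 and 6.

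Within cluster 2, members of the list were lower in C6M9 before the interferon-like cells were taken out. Of 35 genes, 13 were called and all 13 were lower, where 1.09% of 10383 genes were called and 0.934% lower, and 26 of 27 type I genes had a difference below 0. Ifit3 was at 237 and 242 CPM in M9 and 107 in both C6M9 libraries (-1.16, adjusted p = 3.84e-05, edgeR). Rsad2 was at 74.9 and 77.9 against 35.6 and 30.3 (-1.21, adjusted p = 6.62e-05), and Ifit1 at 153 and 172 against 97.8 and 93.1 (-0.76, adjusted p = 0.00194). Ifit3b (-1.11), Ifih1 (-1.06), Slfn5 (-0.99), Isg20 (-0.93), Cmpk2 (-0.85), Isg15 (-0.74), Stat2 (-0.67), Usp18 (-0.66) and Ifi27l2a (-0.63) were also lower, and so was 1 gamma type gene, Iigp1.

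Iigp1 was at 22.8 and 51.5 in M9 and 16.7 and 15.01 in C6M9 (-1.24), and without M9 replicate 2 its difference was -0.51 (adjusted p = 0.171). Called with every library left out in turn were Ifit3, Ifit3b, Rsad2, Isg20, Slfn5 and Ifih1. Ifit1, Stat2 and Cmpk2 were not called without C6M9 replicate 2, Usp18 not without C6M9 replicate 1, and Isg15 and Ifi27l2a were lost when either of the C6M9 libraries was left out. Cells of the interferon-like cluster made up 29.8% and 29.3% of cluster 2 in M9 and 18.9% and 20.1% in C6M9. With these cells taken out, 1 of the 35 genes was called, Ifi27l2a (-0.61), where 0.89% of all genes were. The median type I difference was then 0.20 instead of -0.49, and the median of the gamma type genes 0.44 instead of -0.20. Of the 27 type I genes 21 then had a difference above 0, and of the 8 gamma type genes all 8, Iigp1 (0.23) included. The calls also depend on how cells were divided. At a coarser clustering (Leiden resolution 0.4 instead of 0.6) a cluster led by Il7r and Ccl5 had 12 type I genes lower. There, 26 of 27 were below 0 and 1.08% of all genes were called. At a finer one (resolution 1) only 2 members were lower in any of 9 clusters, both in a TCR-activated-like cluster, and 11 were higher. The finer clusters led by Ccl5 and by Ccr10 had no member called. Of the type I genes, 24 of 27 (median -0.38) and 15 of 27 (median -0.01) were below 0 there. In the clusters from all variable genes 3 were lower and 6 higher. Of all genes, 0.0327% to 3.96% were called in single clusters at resolution 1 and 0.0514% to 20.8% in those from all variable genes.

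In the cycling and TCR-activated-like clusters the differences had the opposite direction. In the cycling-like cluster 6, 9 members were higher and none lower, where 1.9% of all genes were called and 1.17% higher. Ifit1 was at 14.2 and 11.3 CPM in M9 and 23.4 and 35.8 in C6M9 (1.20, adjusted p = 0.0136), and Epsti1 at 149 and 120 against 267 and 334 (1.16, adjusted p = 0.00207, edgeR). The others were Slfn5 (1.17), Usp18 (1.07), Ifi213 (1.00), Slfn1 (0.75), Slfn8 (0.66), Zbp1 (0.62) and Ifi47 (0.60). C6M9 replicate 2 was the highest library for all 9. Without it the calls of members were lost, as were nearly all calls of other genes, in a fit with 1 C6M9 library. The median type I difference was then 0.33 instead of 0.56, with 24 of 27 type I genes above 0. Usp18, Zbp1, Ifi47, Slfn1 and Slfn8 were also lost without C6M9 replicate 1. Interferon-like cells made up at most 0.735% of this cluster in any library.

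The TCR-activated-like cluster 4 had no interferon-like cell. In it 7 members were higher and 1 lower, where 4.41% of all genes were called, 1.94% higher and 2.47% lower. Epsti1 was at 105 and 106 in M9 and 229 and 311 in C6M9 (1.36, adjusted p = 4.69e-07, edgeR), and Ifi213 at 14.7 and 20.8 against 36.97 and 60.5 (1.54, adjusted p = 8.04e-05). Slfn5 (0.87), Rtp4 (0.78), Slfn1 (0.71), Zbp1 (0.57) and Bst2 (0.49) were higher too. Ifi27l2a was lower, at 1179 and 1487 against 951 and 859 (-0.56, adjusted p = 0.00668). Without C6M9 replicate 2 only Ifi213 and Epsti1 were called. Rtp4, Slfn1 and Slfn5 were also lost without M9 replicate 1, and Bst2, Zbp1 and Ifi27l2a without M9 replicate 2.

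In cluster 7, where 0.879% of all genes were called and 0.293% higher, Ifit1 (1.30), Epsti1 (0.78) and Ifi213 (0.69) were higher. Without C6M9 replicate 2 these calls were lost, as were nearly all calls of other genes. The median type I difference was then 0.41 instead of 0.39. Ifi213 was also not called without C6M9 replicate 1. In cluster 0, where 0.242% were called and 0.121% lower, only Isg15 was, at 50.6 and 55.2 against 26.3 and 28.7 (-0.93, adjusted p = 0.0334, edgeR), and without interferon-like cells its difference was 0.06. No member was called by edgeR in cluster 1, where 0.0829% of all genes were, or in cluster 5, where 0.703% were. At an unadjusted p under 0.05, cluster 1 had 4 members higher and 2 lower, where 618 of 9650 genes were under it. Cluster 5 had 9 members higher and 0 lower, where 1365 of 10098 genes were under it. Over the 7 clusters, 21 members were called in at least 1. Single clusters had 0.0829% to 4.41% of all genes called, and the share of all genes called in at least 1 cluster was not computed. Ifit1, Usp18 and Slfn5 were called lower in cluster 2 and higher in another. Epsti1 and Ifi47 had a difference above 0 in all 7, and Ifi27l2a below 0 in 6 of 7.

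**Figure D4:**
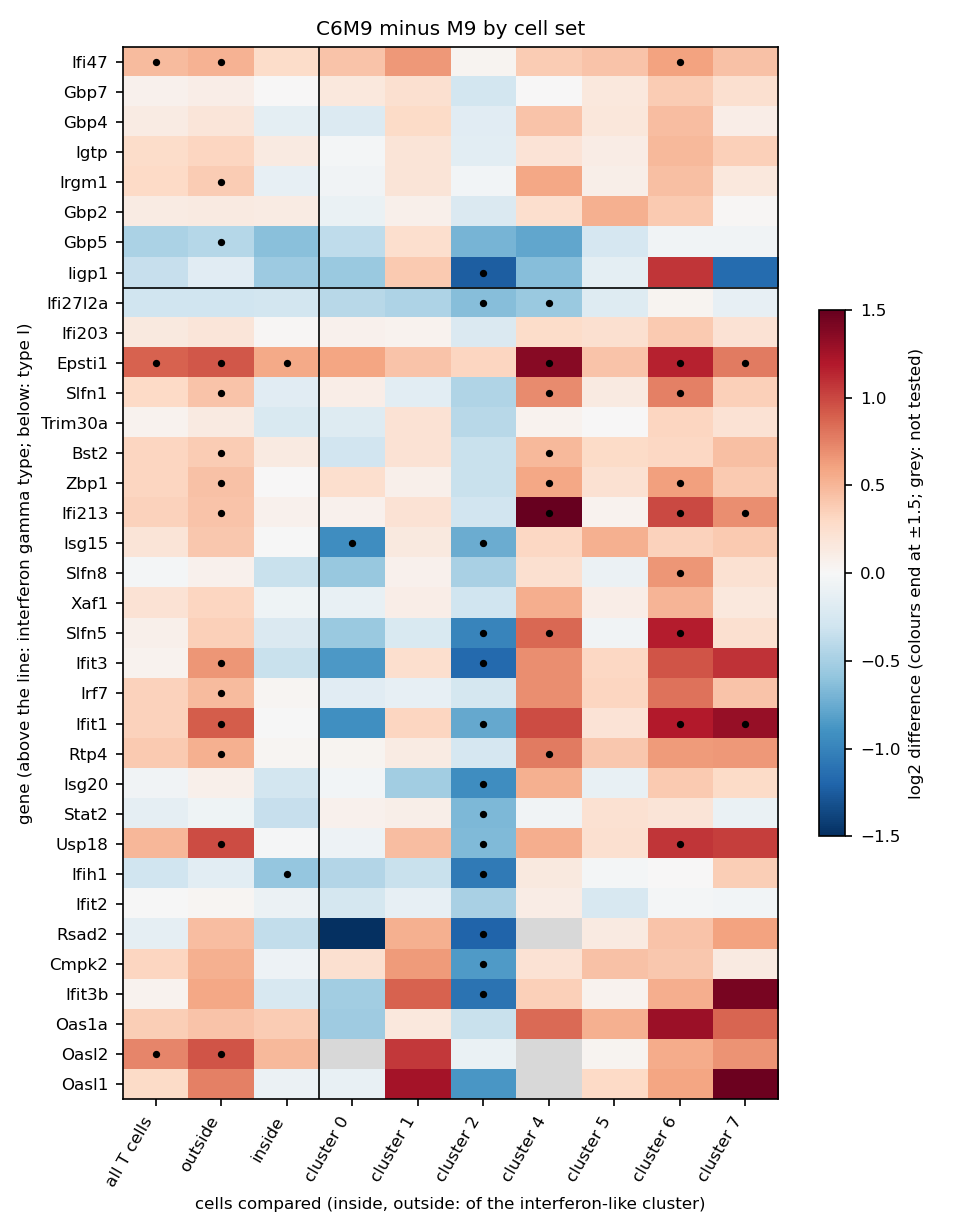
Difference C6M9 minus M9 (log2, colour scale ending at ±1.5) of 35 genes in all T cells, outside and inside the interferon-like cluster, and in 7 clusters, with a dot where edgeR's adjusted p was under 0.05 and grey where a gene was not tested. Cluster 2 is blue for 26 of 27 type I genes, clusters 4, 6 and 7 are mostly red, and Epsti1 is red in each column.

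That the difference varied between clusters was tested directly by an edgeR F test of the cluster by group terms over the sums of the 7 clusters. It was called for 28 of 35 members, against 720 of 11413 genes (6.31%). By adjusted p the first were Slfn5 (2.09e-07), Ifit3 (5.72e-07), Epsti1 (4.07e-06) and Ifit1 (6.16e-06). Of the gamma type genes Gbp7, Gbp4, Iigp1 and Ifi47 were called, and Gbp2, Gbp5, Igtp and Irgm1 were not, nor were the type I genes Ifit2, Oasl1 and Oasl2. With the interferon-like cells taken out of the clusters, 6 members were called, against 6.07% of all genes. In clusters made from all variable genes, 16 were called, against 17.4%. Fewer members were called with any 1 library left out, fewest without C6M9 replicate 2, and the same held for all genes.

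Depth per cell differed between libraries, so shares of cells were compared after drawing 2000 UMIs from each, which left out 24 shallower T cells. The share of T cells with at least 5 type I UMIs was 54.9% and 61.1% in the M9 libraries, against 60.5% and 61.4% in those of C6M9. The difference of 2.91 percentage points was smaller than the pooled SD of 3.14 points. Without Ifi27l2a the shares were 21.2% and 27.7% against 35.7% and 35.9%, a difference of 11.3 points with a pooled SD of 3.26. With Epsti1 also left out they were 15.6% and 21.6% against 23.03% and 23.9%, a difference of 4.85 points (pooled SD 3.04). The share with at least 3 gamma type UMIs was 5.55% and 6.78% against 8.49% and 7.30%, a difference of 1.73 points (pooled SD 0.857). An exact permutation test of 2 against 2 libraries cannot pass the threshold, so none was used. Before drawing, the shares were 99.2% to 99.5% for type I, and 65.8% and 86.0% against 79.3% and 87.1% for gamma type. Among the 124 B cell-like cells, with a median of 11975 UMIs, the shares at equal depth were 51.6% and 7.26%. B cells respond to interferon too and are no blank. The gamma type share of T cells was below theirs in both M9 libraries and only slightly above it in both C6M9 libraries. The type I share of T cells, 54.9% to 61.4%, was also not far from their 51.6%. Neither share is read as expression in single cells.

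Epsti1 and Ifi27l2a differed in opposite directions at equal depth as well. Epsti1 was seen in 35.1% and 37.4% of M9 T cells and 56.6% and 57.0% of C6M9 T cells. Ifi27l2a was seen in 80.2% and 81.7% against 73.8% and 72.1%. For both, the groups did not overlap. Type I UMIs were unevenly spread, with 31.2% to 33.1% of them in the 10% of cells with most, and gamma type UMIs with 38.7% to 44.2%.

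Cells with more type I UMIs also had more gamma type UMIs. Across T cells of a library, the Pearson correlation of both sums was 0.27 (range 0.25 to 0.29 over 4 libraries), 0.35 at 4000 UMIs per cell and 0.14 outside the interferon-like cluster. Cells of 1 library share its preparation, and sparse counts hold correlations down, so these are descriptions. Among cells with at least 5 type I UMIs, 7.92%, 9.18%, 11.7% and 10.1% had at least 3 gamma type UMIs, against 2.66%, 3.02%, 3.51% and 2.85% of the rest. These cuts set groups of cells side by side and, as above, are not read as expression in single cells. Ifit3 and Isg15 followed the rest of the type I sum most closely (0.37 each) and also had the highest values with the gamma type sum (0.29 each). Ifi27l2a (0.36 and 0.15) and Epsti1 (0.22 and 0.08) had higher values with the type I sum than with the gamma type sum. The gamma type sum was 0 in 48.1% to 55.4% of cells and the type I sum in 3.24% to 4.03%. The 2 values of a gene are therefore not like measures, and which sum a gene follows more cannot be read from them. The gamma type gene Ifi47 had 0.16 with the type I sum and 0.15 with its own, and Gbp5 0.05 and 0.08.

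**Figure D5:**
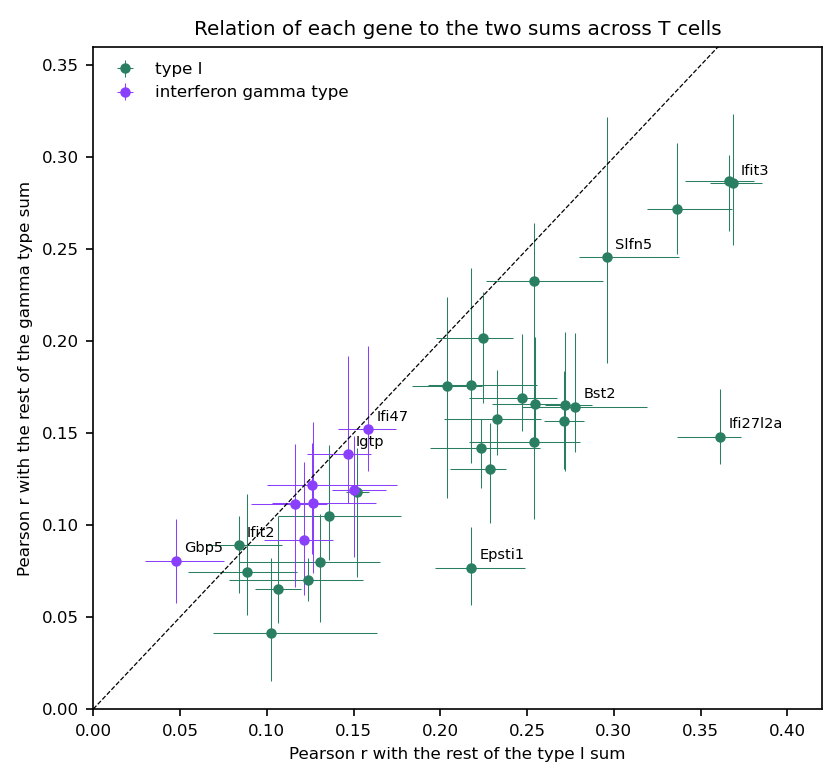
Pearson correlation of each gene with the rest of the type I sum (x axis) and of the gamma type sum (y axis) across T cells at 2000 UMIs per cell, as the mean over 4 libraries with bars from the lowest to the highest library. Ifit3 lies at 0.37 and 0.29, Ifi27l2a and Epsti1 lie far below the dashed line of equal values, and the gamma type genes lie close to it.

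Genes outside the list whose UMIs followed the type I sum most closely, among genes seen in at least 5% of cells, were Shisa5 (0.25), Rnf213, Ifi206 and Samhd1 (0.24 each), Ifi209, Malat1 and Ifi208 (0.23 each), Mndal (0.22) and Phf11b (0.21). For the gamma type sum they were Samhd1 (0.18), Mndal and Ifi206 (0.15 each), Dtx3l, Ifi208 and Parp14 (0.14 each), and Ifi214, Phf11b and Rnf213 (0.13 each). Samhd1, Mndal, Ifi206, Ifi208, Phf11b and Rnf213 appear in both series, and all values are means over the 4 libraries.

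In the pathway around these genes few genes were called. Of 16 receptor and signalling genes tested over all T cells, 2 were higher and 1 lower in C6M9. Of all genes, 5.63% were called, 1.59% higher and 4.04% lower. Ifngr1, the ligand-binding chain of the interferon gamma receptor, was at 62.2 and 61.1 CPM in M9 and 88.6 and 91.9 in C6M9 (0.55, adjusted p = 0.0089, edgeR). Ifngr2, the signalling chain, was scarce, at 0.348 and 0.411 against 1.31 and 1.15 (1.72, adjusted p = 0.0194). The kinase Jak2 was lower, at 50.2 and 49.0 against 35.5 and 39.1 (-0.41, adjusted p = 0.0356). Not called were the type I receptor chains Ifnar1 (-0.02) and Ifnar2 (-0.11), Irf9 (-0.03), Irf1 (0.06) and Irf2 (-0.32).

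Among 49 further interferon stimulated genes tested, 1 was higher and 1 lower over all T cells, no larger a share than the 5.63% called of all genes. The surface protein gene Ly6a was at 92.9 and 87.3 in M9 and 156 and 148 in C6M9 (0.76, adjusted p = 0.00373). Cxcl10, a chemokine that attracts T cells, was at 26.96 and 22.1 against 7.19 and 5.92 (-1.91, adjusted p = 0.000823, edgeR). Outside the interferon-like cluster Ifit1bl1 (0.66), Ifi208 (0.47), Oas2 (1.30) and Phf11b (0.50) were higher as well. There, 5 of 48 tested were higher and 1 lower, where 1.64% of all genes were higher and 4.12% lower. Of 14 interferon-inducible genes of class I antigen presentation, 1 was higher over all T cells, where 1.59% of all genes were. It was Psmb10, an immunoproteasome subunit (0.39, adjusted p = 0.0463, edgeR). Among the interferons, Ifng was at 47.6 and 13.7 CPM in M9 and 7.37 and 17.9 in C6M9, with M9 replicate 1 far above the rest, and the 7 other interferon genes looked at had no UMI in 232387360, which allows up to 0.0129 CPM (3 counts, counting error only).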

How the data were processed

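The authors deposited raw UMI counts per gene and barcode, 1 matrix per library, made with Cell Ranger 6.0.0 on mm10 per the submitters' processing notes. Whether introns were counted is not given in these sources. The members and gene lists were chosen with earlier results of these data known. Described singly are members with a mean of at least 20 CPM or called in a comparison, genes of the pathway lists that were called, receptor, STAT and IRF genes, and the 10 genes most like each sum, of which 1 is not reported here.

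A barcode was kept with 500 or more genes, 1000 or more UMIs and a mitochondrial share of at most 10% (Python 3.11.15, scanpy 1.11.5). The automatic Scrublet threshold marked almost no cell, so the highest scores were left out at 0.8% per 1000 barcodes. Leiden clusters (igraph 0.11.9, resolution 0.6) were named from marker lists. UMIs were summed per library and cell set and tested with edgeR 4.0.16 (R 4.3.3; TMM, filterByExpr, quasi-likelihood, two-sided, Benjamini-Hochberg over all genes at 0.05) without a replicate block. SEs are of the log2 difference. DESeq2 1.42.0 was an alternative, as were other filters, scalings, clusterings and each library left out.

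On simulated counts shaped like the comparison over all T cells (13654 genes), the test recovered 50.7% of 1.5-fold, 70% of 2-fold and 97.1% of 4-fold changes, with 3 false among 146 calls. Inside the interferon-like cluster it recovered 31.9% of 1.5-fold changes. The test of cluster by group terms recovered 27.3%, 59.4% and 79.7%, with 7 false among 118 calls. Counts were drawn at the spread that the fit itself uses, so false calls in real libraries are not measured. Library totals were 79174624, 33680632, 73379920 and 65721044 UMIs. Coordinates are those of GRCm38.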

Additional observations from a re-analysis of the deposited data

Results flagged for a closer look

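The difference between C6M9 and M9 was itself different between the 7 clusters for 28 of the 35 members (edgeR F test of the cluster by group terms, Benjamini-Hochberg adjustment over 11413 genes), where it was for 720 of all genes (6.31%). With the interferon-like cells taken out of the clusters it was for 6 members, where 6.07% of all genes were called, and in clusters made from all variable genes for 16, where 17.4% were. The adjusted p was 2.09e-07 for Slfn5, 5.72e-07 for Ifit3, 4.07e-06 for Epsti1, 6.16e-06 for Ifit1, 1.55e-05 for Ifit3b, 1.70e-05 for Ifi213, 2.37e-05 for Slfn1 and 6.49e-05 for Isg15. It was 0.000185 for Isg20, 0.000262 for Trim30a, 0.000322 for Zbp1, 0.000593 for Slfn8, 0.000862 for Ifi203, 0.000932 for Ifi27l2a, 0.00103 for Cmpk2, 0.00165 for Bst2, 0.00336 for Ifih1 and 0.0036 for Irf7. It was 0.0109 for Gbp7, 0.013 for Rsad2, 0.0137 for Gbp4, 0.0164 for Usp18, 0.0165 for Rtp4, 0.0212 for Oas1a, 0.0262 for Stat2, 0.0343 for Xaf1, 0.0365 for Iigp1 and 0.0441 for Ifi47. The lowest difference was in cluster 2 for 27 of all 35 members.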

How the results depend on the processing

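Counts of called members depended on the settings, and so did those of all genes. The share of all genes called in at least 1 cluster was not computed, so counts within clusters have no such share beside them. Over all T cells the 3 became 12 with DESeq2 (which called 8.18% of all genes instead of 5.63%), 15 without a filter on low counts (9.58%), 9 when cells in S or G2M phase were left out (8.1%), 5 with the replicate block, and 1 to 12 with 1 library left out, over which all genes called ranged from 237 (without C6M9 replicate 1) to 1935 (without the filter). Outside the interferon-like cluster the 14 became fewer without either C6M9 library, as did calls of all genes. The median type I difference there ranged from 0.35 to 0.48 with 1 library left out. Within clusters the 21 ranged from 11 to 30, and were 13 at Leiden resolution 1, 9 in clusters from all variable genes and 12 (11 higher and 1 lower) without interferon-like cells. The 28 whose difference varied between clusters ranged from 12 to 25, and were 6 without interferon-like cells and 16 in clusters from all variable genes. Of 317 recomputed differences of single called members, 230 stayed called in the same direction, 78 kept it but were no longer called, and 9 changed direction, none of them called then. These 9 were all lower and came above 0 once interferon-like cells were taken out, Isg15 in cluster 0 (0.064) and in cluster 2 Usp18 (0.88), Ifit3 (0.71), Rsad2 (0.47), Ifit1 (0.31), Ifit3b (0.29), Iigp1 (0.23), Isg15 (0.20) and Cmpk2 (0.0033). The cause was not tested.

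The difference in the share of T cells with many type I UMIs was 11.3 percentage points without Ifi27l2a instead of 2.91, and -0.205 to 6.02 with 1 library left out. That of gamma type UMIs was 4.397 at a minimum of 2 UMIs, 0.167 at 5 UMIs and 5.21 at 4000 UMIs per cell, instead of 1.73. The correlation of both sums was 0.14 outside the interferon-like cluster and 0.35 at 4000 UMIs instead of 0.27. The deviations of like-numbered libraries did not go together (r = -0.0013 over 13654 genes) and the labels do not say that a number marks a batch, but their depths were alike (median 13205 and 13993 UMIs per T cell for number 1, 20024 and 21476 for number 2), so a shared preparation or run is not known. With the replicate block 15 members were called outside the interferon-like cluster, where 6.79% of all genes were, and 28 within clusters. Gbp5 outside (adjusted p = 0.0526, edgeR) and Ifih1 inside (0.0663) were not called then. A member of few UMIs per cell, such as Oasl1, is limited by depth.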
